A study of Mus musculus with 6 samples.

Results

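The sites described here are the stretches of the mouse genome that Foxa1 occupied at both time points of the study and that also held Foxa2 at the later one. A region of the 6-month Foxa2 peak list on chromosomes 1 to 19 was taken when it overlapped, by 1 bp or more, a region of the 2-week Foxa1 list and a region of the 6-month Foxa1 list; such regions are called joint sites below. The rule took 10190 of the 34729 Foxa2 regions of 6 months, or 29.3%. Of the remaining Foxa2 regions, 14025 (40.4%) met Foxa1 at 6 months only, 2579 (7.43%) met it at 2 weeks only and 7935 (22.8%) met no Foxa1 region. Since presence in these 3 lists chose the joint sites, those shares are a description of the choice and support nothing.

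The material was mouse prostate tumor cells of the strain C57BL/6 treated with tamoxifen, a drug commonly used to switch on an inducible Cre recombinase; the alleles carried, what the drug switched on and any driving promoter are not given in the labels used here. The groups were Foxa1 after 2 weeks, Foxa1 after 6 months, Foxa2 after 2 weeks and Foxa2 after 6 months of treatment, plus an input library (sheared chromatin with no antibody) at each time, which was not analysed here. Each group was 1 library, and the protocol describes chromatin from 3 dissected prostates. The labels do not say whether the 2 precipitations of a time point came from the same chromatin. With 1 library per group there is no measure of replicate spread, so no test between groups was made; the 95% intervals printed below are exact binomial (Clopper-Pearson) intervals and reflect counting error alone. The depth of sequencing is unknown, and a deeper or cleaner library gives a longer list, so absence from a list can reflect either. The lists on chromosomes 1 to 19 held 53460 Foxa1 regions at 2 weeks, 35630 Foxa1 regions at 6 months, 1 Foxa2 region at 2 weeks and 34729 Foxa2 regions at 6 months. The single 2-week Foxa2 region overlapped no joint site, and the nearest lay 234 kb away.

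Foxa1 and Foxa2 are forkhead transcription factors known as pioneer factors, because they can bind their motif in DNA that is wrapped around nucleosomes and make it accessible to other proteins. Both recognise nearly the same short motif. In the prostate, Foxa1 is known as a partner of the androgen receptor in luminal epithelium, whereas Foxa2 is known from the developing prostate bud and from neuroendocrine prostate cancer. Chromatin immunoprecipitation sequencing reports where such a factor sits on DNA; it measures neither expression of the gene nearby nor whether both proteins occupy the same molecule of DNA.

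The DNA under joint sites could be read where a Foxa2 summit, the position of highest signal in a region, fell inside a promoter window of 300 bp that runs from 250 bp before a gene's start site to 50 bp after it. Of 31396 windows in the RefSeq table (GRCm38.p6, the assembly called mm10 in the submitters' processing notes), 150 held the summit of a joint site, or 0.478%. They belonged to 143 gene symbols and 139 regions, and 102 of the windows were those of protein-coding genes. The forkhead motif was searched on both strands as any of 4 words, TGTTTAC or TATTTAC or TGTTGAC or TATTGAC. The 250 bases before the start site are printed for 8 of these windows, on the strand of the gene and with forkhead words in capitals. Foxa1 and Lef1 are shown as genes of the lists described below and the others because their Foxa2 regions had the highest −log10 q among promoter windows, in falling order and whether or not they held a word. A pair of windows in that order, Gm34820 and Gm41301 on opposite strands of almost the same DNA, is left out. The printed stretches are Foxa1 at chr12:57546112-57546361 on the minus strand, Lef1 at chr3:131112541-131112790 on the plus strand, Gm46038 at chr8:34456668-34456917 on the plus strand, Rptoros at chr11:119834366-119834615 on the minus strand, Pde1c at chr6:56362811-56363060 on the minus strand, Gm30263 at chr19:10366278-10366527 on the minus strand, Wfikkn1 at chr17:25880859-25881108 on the minus strand and Ttll10 at chr4:156050818-156051067 on the minus strand.
Foxa1: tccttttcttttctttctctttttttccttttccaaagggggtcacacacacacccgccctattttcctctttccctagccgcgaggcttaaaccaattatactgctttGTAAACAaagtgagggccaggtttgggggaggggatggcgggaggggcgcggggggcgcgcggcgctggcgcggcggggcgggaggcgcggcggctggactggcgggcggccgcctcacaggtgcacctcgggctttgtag
Lef1: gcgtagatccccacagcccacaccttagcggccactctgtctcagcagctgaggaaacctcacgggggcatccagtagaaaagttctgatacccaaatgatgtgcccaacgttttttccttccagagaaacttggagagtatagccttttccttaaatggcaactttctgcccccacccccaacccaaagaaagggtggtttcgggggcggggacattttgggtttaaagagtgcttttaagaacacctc
Gm46038: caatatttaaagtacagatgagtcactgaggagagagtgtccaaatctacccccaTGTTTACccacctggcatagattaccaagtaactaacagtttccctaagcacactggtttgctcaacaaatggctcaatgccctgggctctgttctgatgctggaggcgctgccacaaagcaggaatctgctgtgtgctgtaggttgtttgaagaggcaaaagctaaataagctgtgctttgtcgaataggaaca
Rptoros: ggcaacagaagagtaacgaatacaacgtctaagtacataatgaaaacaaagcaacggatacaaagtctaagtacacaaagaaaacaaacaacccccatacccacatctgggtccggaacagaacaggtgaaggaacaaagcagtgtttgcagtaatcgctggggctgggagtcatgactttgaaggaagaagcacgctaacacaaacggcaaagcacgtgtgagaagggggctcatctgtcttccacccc
Pde1c: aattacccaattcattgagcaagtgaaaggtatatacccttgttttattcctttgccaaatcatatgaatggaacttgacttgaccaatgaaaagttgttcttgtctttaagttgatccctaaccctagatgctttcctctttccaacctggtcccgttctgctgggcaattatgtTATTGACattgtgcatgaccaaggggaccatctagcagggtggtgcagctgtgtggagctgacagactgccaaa
Gm30263: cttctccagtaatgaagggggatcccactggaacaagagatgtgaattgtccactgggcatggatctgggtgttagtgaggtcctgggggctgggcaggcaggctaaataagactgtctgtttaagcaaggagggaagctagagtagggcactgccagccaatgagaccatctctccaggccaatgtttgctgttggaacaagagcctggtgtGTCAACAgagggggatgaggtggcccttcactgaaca
Wfikkn1: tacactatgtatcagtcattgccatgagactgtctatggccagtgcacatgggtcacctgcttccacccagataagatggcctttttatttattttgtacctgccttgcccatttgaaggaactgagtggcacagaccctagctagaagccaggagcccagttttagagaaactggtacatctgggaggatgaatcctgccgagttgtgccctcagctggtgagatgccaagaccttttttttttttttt
Ttll10: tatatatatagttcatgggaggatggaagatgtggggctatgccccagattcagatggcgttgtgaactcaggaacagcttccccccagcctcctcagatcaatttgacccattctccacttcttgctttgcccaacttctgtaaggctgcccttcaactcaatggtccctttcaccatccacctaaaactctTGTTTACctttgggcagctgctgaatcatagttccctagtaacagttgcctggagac

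In the Foxa1 window the word started at position 110, counted from the first printed base, and 79 bp from the Foxa2 summit, which stood at position 34, 217 bp before this start site. The capitals there run on into the bases aag, so that the letters of the Sox motif AACAAAG overlap those of the forkhead motif; this overlap occurred in 3 of the 150 windows. The start site of this window lay inside the Foxa1 gene (57540628 to 57548029), not at its end. The region over the window had a Foxa2 fold enrichment of 4.38, against 3.73 for Foxa1 at 6 months and 4.28 for Foxa1 at 2 weeks. Fold enrichment is the authors' value for the summit over the caller's background, and is used to describe and rank regions within a list; folds of different lists are set side by side below, but a difference between lists is not evidence of a change. The joint site at this Foxa1 window was middling. Joint sites were ranked from 0 (weakest) to 100 (strongest) by −log10 q, the authors' measure of how far a peak stands above background. This site stood at 44.5 for Foxa2, 30.0 for Foxa1 at 6 months and 25.9 for Foxa1 at 2 weeks.

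Lef1 encodes a transcription factor of the Wnt pathway, and the start site of its window lay inside the gene (131110297 to 131224357). The window held none of the 4 words, and its Foxa2 summit stood 191 bp before that start site with a fold of 3.34. Both Foxa1 regions there had folds of 3.88 at 6 months and 4.28 at 2 weeks. No match says only that these letters are not in the window. The window of Gm46038 lay under a region with folds of 13.8 for Foxa2, 14.3 for Foxa1 at 6 months and 14.7 for Foxa1 at 2 weeks. Its word TGTTTAC started at position 56, and its middle stood 15 bp from the Foxa2 summit. Pde1c, which encodes a phosphodiesterase that degrades cyclic nucleotides, had folds of 12.1, 12.6 and 11.9 in the same order and the word at position 177 centred 17 bp from the summit. A second word there began at the start site itself, just past the printed bases. At Gm30263 the folds were 10.0 for Foxa2, 5.92 for Foxa1 at 6 months and 14.4 for Foxa1 at 2 weeks, with the word at position 214 again 17 bp from the summit. At Ttll10, which encodes a glycine ligase of the tubulin tyrosine ligase-like family, they were 10.3, 4.43 and 7.29, and the word at position 194 was 58 bp from the summit. Rptoros and Wfikkn1, with Foxa2 folds of 9.84 and 10.3, held no word, so that 3 of the 8 printed windows had none. Over the 81 joint windows with a word, the nearest word was a median of 72 bp from the Foxa2 summit (interquartile range 36 to 125, at most 268).

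Over all 150 windows, 81 held a forkhead word, or 54.0% (45.7 to 62.2), against 10.2% of all promoter windows and against 41 of 95 windows under Foxa2 regions with Foxa1 at 6 months only, 43.2% (33.0 to 53.7), an overlapping interval. Some of those 95 windows shared a region. Counted by region, 76 of 139 joint sites held one, 54.7% (46.0 to 63.1), against 25 of 76 Foxa2 regions with Foxa1 at 6 months only, 32.9% (22.5 to 44.6), and these intervals did not overlap, so the separation depends on the unit counted. Of the 22 promoter regions with Foxa1 at 2 weeks only, 9 held a word (40.9%, 20.7 to 63.6), as did 14 of the 37 with no Foxa1 region (37.8%, 22.5 to 55.2), so that both intervals overlapped that of the joint sites. Among the words, TGTTTAC stood in 34 joint windows (22.7%, against 3.71% of all windows), TATTTAC in 25 (16.7% against 3.08%), TGTTGAC in 16 (10.7% against 2.52%) and TATTGAC in 10 (6.67% against 1.42%). All 4 words were thus more common than in all windows, and the order of the words was the same. A window usually held a single word: 76 windows had 1, 4 had 2 and 1 had 3.

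The words were denser within 150 bp of the Foxa2 summit than beyond. Within 25 bp of it there were 2.58 words per kb of window, between 100 and 150 bp there were 2.56, and between 150 and 300 bp 0.804; all promoter windows had 0.374 per kb. Base composition differed mainly for the windows with Foxa1 at 6 months only. The joint windows had a median GC content of 53.8%, against 53% for all windows and 47% for windows with Foxa1 at 6 months only. In windows with at least 58.7% GC, where the AT-rich forkhead words are rare in general (3.67% of all windows), 25 of 35 joint windows held a word, 71.4% (53.7 to 85.4). In the most AT-rich windows the shares were 59.1% (26 of 44) for joint windows and 60.0% (30 of 50) for those with Foxa1 at 6 months only, in the middle class 42.3% (30 of 71, 30.6 to 54.6) and 22.9% (8 of 35, 10.4 to 40.1), and in the GC-rich class 71.4% and 30.0% (3 of 10, 6.67 to 65.2). Counted by window, the higher share of the joint windows thus lay in the middle and GC-rich classes, where the intervals overlapped, and not in the AT-rich class. Some windows shared a region and the classes were not counted by region, so these shares do not settle where a difference between regions lay.

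**Figure D1:**
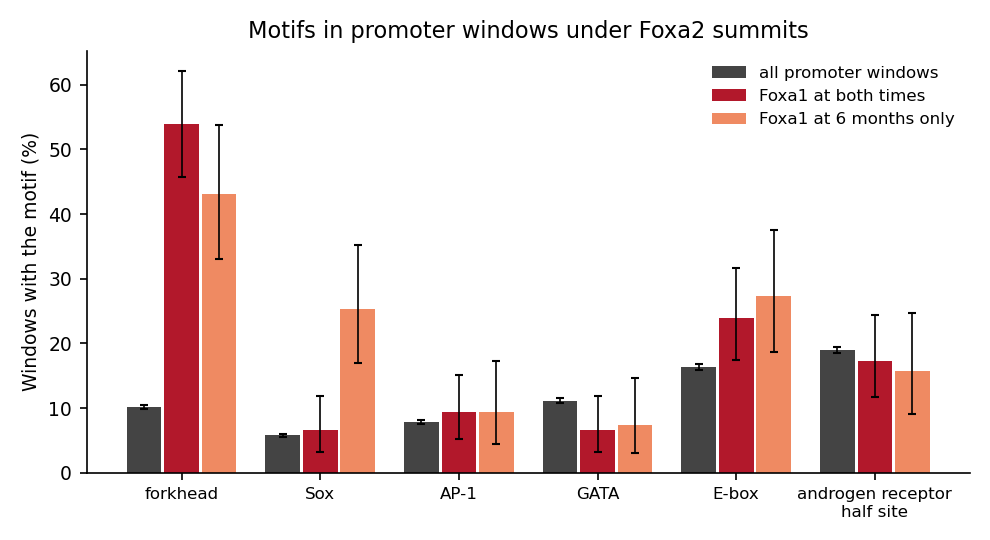
Share of promoter windows (%, y axis) that hold each motif (x axis), for all 31396 windows, the 150 windows under the Foxa2 summit of a joint site and the 95 under a Foxa2 summit with Foxa1 at 6 months only; bars are shares and lines exact 95% binomial intervals. The forkhead motif stands in 54.0% of the joint windows and 10.2% of all windows, whereas the AP-1, GATA and androgen receptor shares of the joint windows have intervals that include those of all windows.

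Motifs of other factors were scanned on both strands in the same windows. The short androgen receptor motif AGAACA, which a single receptor molecule can contact, was in 26 of the 150 joint windows (17.3%) and in 5951 of all 31396. The AP-1 motif TGANTCA, bound by Fos and Jun dimers, was in 9.33% and 7.84%, and the GATA motif AGATAA in 6.67% and 11.2%. The E-box CAGCTG, bound by helix-loop-helix factors, was in 24.0% (17.4 to 31.6) of the joint windows and 16.3% of all. Its share was 27.4% (26 of 95, 18.7 to 37.5) in windows with Foxa1 at 6 months only, so a raised share was not particular to joint windows. It was 21.1% (8 of 38) with no Foxa1 region and 4.55% (1 of 22) with Foxa1 at 2 weeks only. The Sox motif AACAAAG was in 10 joint windows, 6.67%, close to the 5.80% of all windows. It was more common in windows with Foxa1 at 6 months only (24 of 95, 25.3%, 16.9 to 35.2), but several of those windows shared a region: counted by region, 11 of 76 held it (14.5%, 7.45 to 24.4), against 9 of 139 joint sites (6.47%, 3.00 to 11.9). The nuclear factor I palindrome was in 0 joint windows and in 0.0382% of all windows. A match is a string of letters, not a bound site.

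The joint sites were the wide and strong end of the Foxa2 list. Their median width was 589 bp (interquartile range 335 to 1036), against 394 bp for Foxa2 regions with Foxa1 at 6 months only, 226 bp with Foxa1 at 2 weeks only and 213 bp with no Foxa1 region. Median fold enrichment followed the same order, at 4.38, 3.89, 3.34 and 3.31, as did median −log10 q, at 6.86, 4.82, 3.33 and 3.01. A wide region has more room to overlap another, and a strong one is more easily called, so these values belong to the choice and were not tested. Among the 139 Foxa2 regions wider than 3000 bp, 111 were joint sites and the other 28 had Foxa1 at 6 months only. The widest was a region of 4992 bp at chr9:61805616-61810607, with no protein-coding gene within 100 kb and the nearest RefSeq start site 13.7 kb away. It was followed by 4947 bp in Nav2, which encodes a neuron navigator protein, and 4825 bp in Fto, which encodes an RNA demethylase.

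When the Foxa2 list was cut into 10 equal parts by −log10 q, the share of joint sites was 13.1% in the weakest part and 61.9% (2151 of 3473) in the strongest. The strongest part contained 1318 further regions with Foxa1 at 6 months only, 2 with Foxa1 at 2 weeks only and 2 with none. In the weakest part, by contrast, 455 regions were joint sites and 45.9% had no Foxa1 region. The same gradient held from the side of Foxa1. Joint sites overlapped 9527 of the 53460 Foxa1 regions of 2 weeks, 17.8% (17.5 to 18.1), and 10052 of the 35630 Foxa1 regions of 6 months, 28.2% (27.7 to 28.7). Of the strongest 10% of Foxa1 regions, 43.1% (2306 of 5346) at 2 weeks and 62.8% (2237 of 3563) at 6 months overlapped a joint site. Of the weakest 10%, 9.28% and 10.4% did. The lists differ in length and their overlap defines the joint sites, so these shares belong to the choice and are not compared between times.

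**Figure D2:**
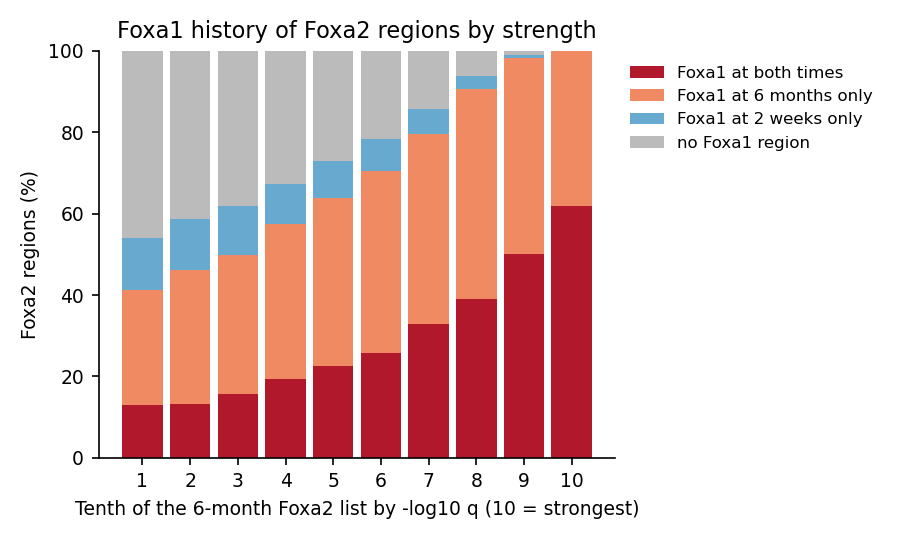
Share of 6-month Foxa2 regions (%, y axis) in each class of Foxa1 overlap for 10 equal parts of the Foxa2 list ordered by −log10 q (x axis, 10 the strongest). The red segment, Foxa1 at both times, grows from 13.1% in the weakest part to 61.9% in the strongest, while the grey segment, no Foxa1 region, shrinks from 45.9%.

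Few regions lay close to the edge of the 1 bp rule. Only 48 joint sites (0.471%) overlapped a Foxa1 region by 10 bp or less in at least 1 of the 2 lists, 284 (2.79%) by 50 bp or less, and 9529 (93.5%) overlapped both by at least 100 bp. The 5 joint sites of smallest overlap lay in Smco4, Tanc1, Tgfbr3 and Lypd6b and near Lhx1, with Foxa2 folds from 2.48 to 3.75. Just outside, 30 Foxa2 regions missed by a gap of 10 bp or less and 183 by 50 bp or less. The 5 nearest, near Gpr37l1 and in Rbms1, Cgnl1, Adgrv1 and Crebrf, directly abutted the missing Foxa1 region at a gap of 0 bp and had Foxa2 folds from 3.13 to 3.93. The folds of these named regions overlapped. A stricter rule took far fewer regions, 3767 with a reciprocal overlap of 50% and 5908 with summits within 200 bp.

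Within joint sites the 3 summits fell close together. Each joint site was paired with the strongest Foxa1 region it overlapped in each list; 736 (7.22%) overlapped 2 or more Foxa1 regions at 6 months and 447 (4.39%) at 2 weeks. The Foxa2 summit stood a median of 105 bp from the Foxa1 summit of 6 months (interquartile range 38 to 224) and 106 bp from that of 2 weeks (39 to 251). The 2 Foxa1 summits stood a median of 104 bp apart. The 3 medians thus differed by no more than 2 bp. The rule requires overlap in both lists and so confines the summits to overlapping regions; these distances describe the joint sites and were not tested. Summits within 100 bp were found in 4930 joint sites (48.4%, 47.4 to 49.4) for 6 months, in 4949 (48.6%, 47.6 to 49.5) for 2 weeks and in 5009 (49.2%) between the Foxa1 libraries. Foxa2 regions with Foxa1 at 6 months only had 45.8% (45.0 to 46.6) within 100 bp of that Foxa1 summit. Those with Foxa1 at 2 weeks only had 42.9% (41.0 to 44.8).

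All 3 summits fell within a span of 100 bp in 2775 joint sites, 27.2% (26.4 to 28.1), and within 10 bp in 153. The share within 100 bp was 23.3% in the narrowest 25% of joint sites and 32.2% in the widest 25%, so that close summits were not limited to narrow regions. At the other end, 403 joint sites (3.95%) had a 6-month Foxa1 summit more than 1000 bp away and 480 (4.71%) a 2-week one. Foxa1 regions were the wider partners, with medians of 783 bp at 6 months and 907 bp at 2 weeks. They covered a median of 95.6% and 94.2% of the width of the Foxa2 region, and all of it in 4148 (40.7%) and 4497 (44.1%) of joint sites. Some Foxa1 regions held several joint sites: 803 Foxa1 regions of 6 months held 2 or more, with at most 7, and 987 of 2 weeks did, with at most 6.

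**Figure D3:**
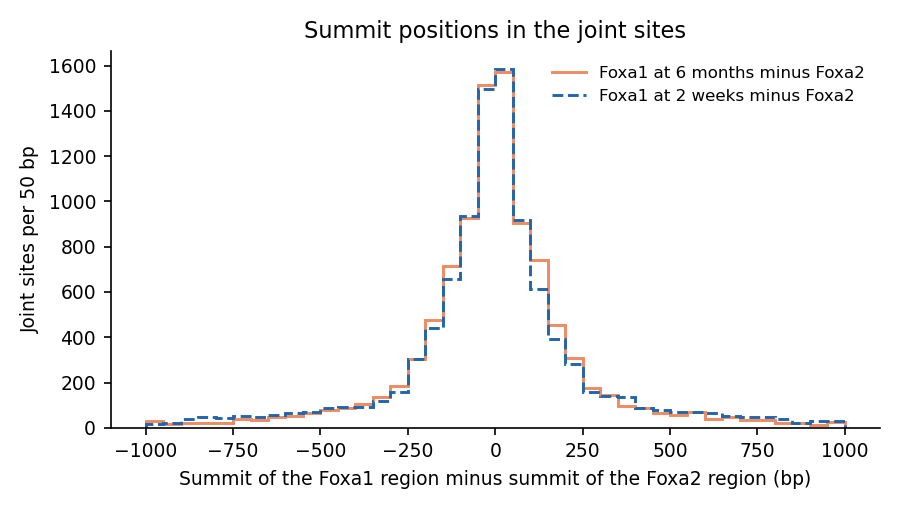
Number of joint sites per 50 bp (y axis) by the distance from the Foxa2 summit to the summit of its Foxa1 partner (x axis, bp), for Foxa1 at 6 months (solid line) and at 2 weeks (dashed line). Both curves peak at 0 and nearly coincide, with medians of the absolute distance of 105 bp and 106 bp.

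Strength was shared within the late time point far more than across time. Across the 10190 joint sites, the −log10 q of Foxa2 and of Foxa1 at 6 months had a Spearman correlation of 0.65. It was 0.20 between Foxa2 and Foxa1 at 2 weeks and 0.27 between the 2 Foxa1 libraries. Widths gave 0.62, 0.16 and 0.27, and fold enrichments 0.62, 0.18 and 0.25, in the same order. These are descriptions across regions, which share width and local background, and the joint sites were chosen on all 3 lists. The 6-month libraries share a time and may share chromatin or an input, whose part in the result was not tested.

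Of the strongest 25% of joint sites by Foxa2 (2546), 1824 (71.6%, 69.8 to 73.4) were also in the strongest 25% by Foxa1 at 6 months and 32 (1.26%) were in the weakest 25%. By Foxa1 at 2 weeks, 1005 (39.5%, 37.6 to 41.4) were in the strongest 25% and 386 (15.2%) in the weakest. Read from the early side, the strongest 25% by 2-week Foxa1 (2581) gave 1145 (44.4%) that stayed among the strongest for Foxa1 at 6 months, 1005 (38.9%) that were among the strongest for Foxa2 and 500 (19.4%) that were among the weakest for Foxa2. When the joint sites were ranked among themselves, 217 were in the top 10% of joint sites by all 3 lists.

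**Figure D4:**
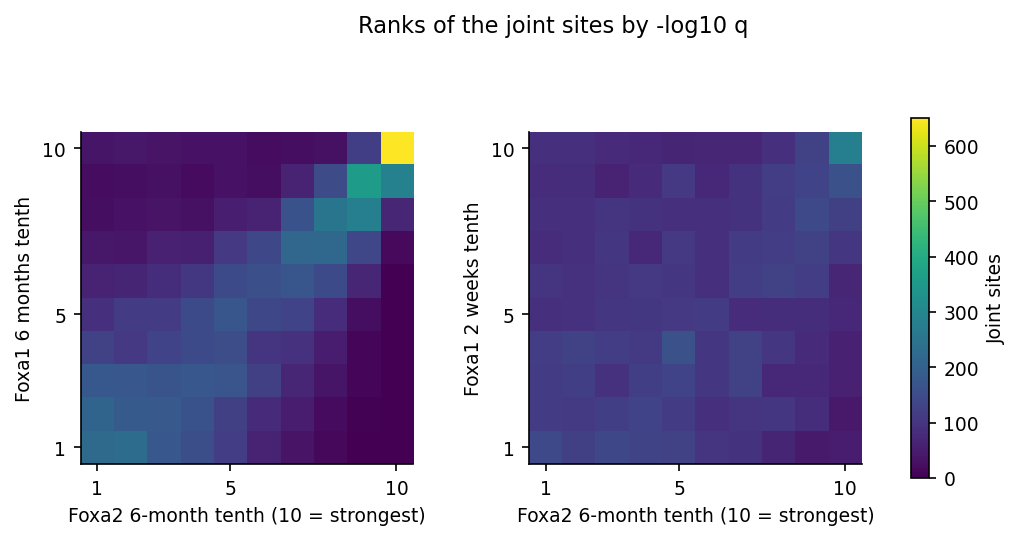
Number of joint sites (colour) by part of the Foxa2 −log10 q ranking (x axis, 10 equal parts, 10 the strongest) and of the Foxa1 ranking (y axis) at 6 months (left) and 2 weeks (right). At 6 months the counts follow the diagonal (Spearman correlation 0.65), and at 2 weeks they are spread over the panel with 1 denser corner at the strongest parts (0.20).

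The strongest joint sites by Foxa2 were mostly strong in the Foxa1 lists too. The highest Foxa2 −log10 q, 92.2, was that of a region 35.9 kb from Chd6, a gene of the CHD family of chromatin remodellers, at chr2:161143598-161145777. Its folds were 20.8 for Foxa2, 17.0 for Foxa1 at 6 months and 22.6 for Foxa1 at 2 weeks. The next, 7.96 kb from BC035044 at chr6:128838881-128841427, had folds of 19.8, 18.6 and 18.5. Both ranked above 98 of 100 in all 3 lists. Of the 10 highest by Foxa2, 3 had no gene within 100 kb, at chr17:75875973-75878101, chr2:178660459-178665134 and chr15:86737124-86739910. In the region on chromosome 2 both Foxa1 summits stood 3 bp from the Foxa2 summit, although the region was 4676 bp wide.

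Enpp3, which encodes an ectonucleotide pyrophosphatase of the cell surface, held 2 of the 10 highest. The region at chr10:24779898-24782534 had folds of 18.4 for Foxa2, 16.0 for Foxa1 at 6 months and 14.7 for Foxa1 at 2 weeks. The region at chr10:24801297-24803671 had 18.3, 14.1 and 7.27, with summits 1 bp and 0 bp from that of Foxa2. The remaining 3 were in Pam, which encodes the enzyme that amidates peptide hormones, 1.80 kb from Eif1b, and 11.5 kb from Celsr1, which encodes a cadherin of planar cell polarity. The region near Celsr1 at chr15:86045124-86046645 had folds of 16.1 for Foxa2 and 14.6 for Foxa1 at 6 months but 7.93 at 2 weeks. All 10 regions ranked above 98 of 100 by Foxa1 at 6 months, whereas by Foxa1 at 2 weeks the second Enpp3 region ranked 81.1 and that near Celsr1 76.0.

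The joint sites of highest Foxa1 −log10 q at 2 weeks were a different set. The highest, in Cdc42bpa, which encodes a kinase of the actin cytoskeleton, had a Foxa1 fold of 25.6 at 2 weeks, against 3.80 for Foxa1 and 5.70 for Foxa2 at 6 months. A region in Magi2, which encodes a scaffold protein of cell junctions, had 19.1 for Foxa1 at 2 weeks, 4.74 for Foxa1 at 6 months and 3.81 for Foxa2. A region 2.09 kb from Gstm7, which encodes a glutathione transferase, had folds of 22.8, 3.42 and 2.89 in that order, although its 2-week summit stood 1078 bp from the Foxa2 summit. The other 2, near Dnpep and near Des, overlapped a single 2-week Foxa1 region with a fold of 23.1. That near Dnpep was also strong late, with folds of 10.98 for Foxa1 at 6 months and 8.61 for Foxa2. That near Des had a Foxa2 fold of 3.24, touched the 2-week region by 27 bp only and had its summit more than 1000 bp from that of Foxa1. These folds come from separate lists, so the sequence of values is a description with no test.

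By Foxa1 at 6 months, 2 of the 5 highest were also among the 10 highest by Foxa2. The highest lay in Stat4, which encodes a transcription factor of cytokine signalling, with folds of 20.2 for Foxa1 and 14.1 for Foxa2 at 6 months and 21.6 for Foxa1 at 2 weeks. Ece1, which encodes the enzyme that matures endothelin, had 18.98, 14.8 and 14.7. A region 17.3 kb from Galnt18 was an exception: its Foxa1 fold at 6 months was 18.2 but its Foxa2 fold was 3.37, and the summits were 1874 bp apart.

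Joint sites whose Foxa2 rank was far above their Foxa1 ranks were moderate in strength. A region in Cnot8, which encodes a subunit of a deadenylase that shortens messenger RNA tails, ranked 85.2 for Foxa2 but 11.01 for Foxa1 at 6 months and 28.5 at 2 weeks. Its folds were 7.30, 2.66 and 4.42. A region in Dicer1, whose product cuts microRNA precursors, ranked 76.7, 12.9 and 12.1. Regions in Pde3a, Rasal2 and St6galnac6 completed the 5, and in all 5 both Foxa1 summits lay within 301 bp of the Foxa2 summit. The 5 at the opposite end were 2 regions in Gna12, a region in Slc22a23, a region 25.3 kb from Tmem242 and a region on chromosome 18 with no protein-coding gene within 100 kb. Those in Gna12, which encodes a G protein subunit, ranked 0.775 for Foxa2 but 95.8 and 99.4 for Foxa1 at 6 months and 2 weeks. In this group the Foxa1 summits were between 1223 and 3312 bp away, so the weak Foxa2 regions sat on the flanks of wide Foxa1 regions.

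Start sites of genes were more common under joint sites than in the Foxa2 list as a whole. A RefSeq start site lay within 1 kb of the Foxa2 summit in 694 of 9808 joint sites (the table used here had no window on chromosome 18, which held the other 382), 7.08% (6.58 to 7.60), against a background of 4.95% of all Foxa2 regions. The share was 3.25% (2.96 to 3.56) with Foxa1 at 6 months only, 7.55% (6.54 to 8.67) with Foxa1 at 2 weeks only and 4.41% (3.96 to 4.89) with no Foxa1 region. The 2 classes that Foxa1 already occupied at 2 weeks were thus the higher ones, and their intervals overlapped. Within 250 bp of a start site the shares were 1.98% for joint sites, 0.822% with Foxa1 at 6 months only, 1.46% with Foxa1 at 2 weeks only and 0.680% with none. At the far end, 14.2% of joint sites were more than 100 kb from a start site, against 24.0%, 12.1% and 21.2%. The median distance was 22.2 kb, against 35.5, 18.6 and 31.2 kb. Most joint sites were therefore distal.

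The difference was present at all strengths. In each of the 10 parts of the Foxa2 list by −log10 q the joint sites were above the regions with Foxa1 at 6 months only, with shares from 4.48% to 10.3% against 1.98% to 4.27%, although the intervals overlapped in the 4 weakest parts. In the strongest part, 118 of 2068 joint sites (5.71%) and 25 of 1265 others (1.98%) were within 1 kb. Seen from the Foxa1 lists, 7.15% (655 of 9164) of 2-week Foxa1 regions with a joint site were within 1 kb of a start site and 4.20% (1773 of 42203) of those without. At 6 months the shares were 7.17% (693 of 9662) and 4.03% (991 of 24608). These Foxa1 shares were not split by strength, and the Foxa1 regions with a joint site were the stronger ones. Their median −log10 q was 11.7 against 5.79 at 2 weeks and 6.92 against 3.85 at 6 months. Ends of protein-coding genes gave the same order: 648 joint sites (6.36%, 5.89 to 6.85) lay within 1 kb of one, against a background of 4.85% and against 3.47% with Foxa1 at 6 months only. Gene bodies differed little, holding 5986 joint sites (58.7%, 57.8 to 59.7) against 57.2% of all Foxa2 regions.

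**Figure D5:**
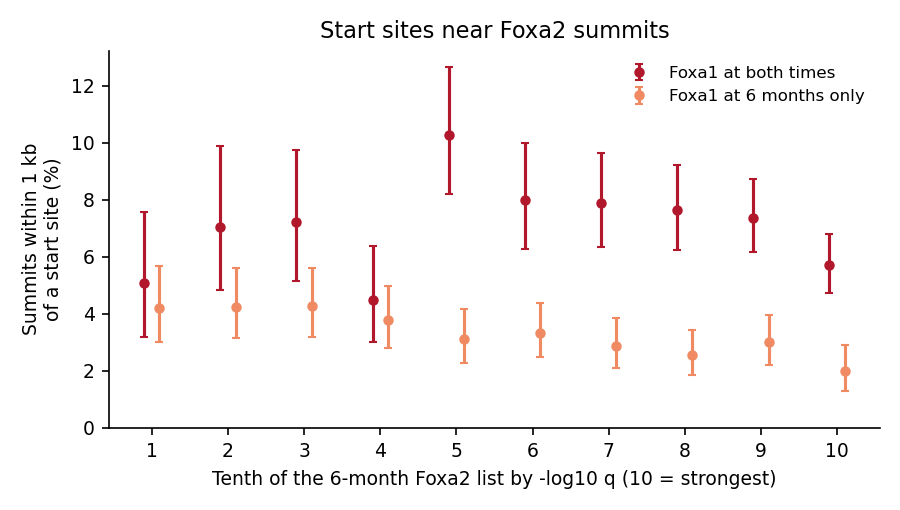
Share of Foxa2 summits within 1 kb of a RefSeq start site (%, y axis) in 10 equal parts of the Foxa2 list by −log10 q (x axis, 10 the strongest), for joint sites (red) and for regions with Foxa1 at 6 months only (orange); points are shares and lines exact 95% binomial intervals. The red point is higher in all 10 parts, at 5.71% against 1.98% in the strongest.

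Joint sites were assigned to the protein-coding gene whose body held the Foxa2 summit; a summit between genes went to the closest gene end up to 100 kb away. This gave 4293 of 20661 genes (20.8%) at least 1 joint site. Of these genes, 2263 had 1, 1627 had 2 to 4 and 403 had 5 or more. Among the joint sites, 1045 (10.3%) had no protein-coding gene within 100 kb. Long genes collect more: in 4 classes of equal size by gene length, with median lengths of 2.43, 10.8, 27.3 and 91.3 kb, 6.14%, 11.6%, 20.4% and 45.0% of genes had a joint site. The counts below are therefore descriptions of loci and not rates.

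Foxp1, a forkhead repressor gene of 597 kb on chromosome 6 (98925342 to 99522746), had the most, 33 of its 79 Foxa2 regions, or 21 when regions less than 1 kb apart were joined. It had 66 Foxa1 regions at 2 weeks and 90 at 6 months. Rere, which encodes a nuclear receptor coregulator, followed with 23 of 50, and Nfib, which encodes a nuclear factor I protein, with 18 of 23. Pde4d and Slc22a23 had 16 each, the former of 56 Foxa2 regions and the latter of 22. Pde4d encodes a phosphodiesterase of cyclic AMP, and Slc22a23 a member of a transporter family. Megf9 had 15 of 26 and Rad51b, a gene of DNA repair by recombination, 15 of 21. Zbtb20, Arhgap26, Abhd2, Arid1b, Fry and Itga6 had 14 each, of 38, 32, 23, 23, 23 and 16 Foxa2 regions. The share of a locus that was joint thus ran from 28.6% at Pde4d to 87.5% at Itga6. Some of these loci had fewer Foxa1 regions in the later list, which was itself shorter, at 35630 regions against 53460. Rad51b had 64 at 2 weeks and 18 at 6 months, and Zbtb20 76 and 32, whereas Foxp1 had more in the later list. These counts were not tested as a change between times.

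At the genes of the factors themselves the picture was unequal. Foxa1 had 7 joint sites among 11 Foxa2 regions (5 after joining), with 16 Foxa1 regions at 2 weeks and 10 at 6 months. Their Foxa2 folds were low, from 3.18 to 4.38, the highest being that at the printed window. Foxa2 had 3 joint sites among 41 Foxa2 regions, with 4 Foxa1 regions at 2 weeks and 51 at 6 months. These 3 lay 67.8, 71.4 and 80.9 kb from the gene, which was the nearest protein-coding one. The nearest RefSeq start site of any gene lay 5.21, 8.86 and 0.071 kb from their Foxa2 summits, in that order. That at chr2:147960623-147962481 had folds of 7.92 for Foxa2, 7.73 for Foxa1 at 6 months and 3.44 for Foxa1 at 2 weeks. That at chr2:147974590-147976323 had 7.30, 7.29 and 7.11. The third, at chr2:147971362-147971547, was weak in all libraries, at 3.55, 4.17 and 2.83. The Foxa2 locus was thus occupied mainly by regions absent from the 2-week Foxa1 list.

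Gene lists chosen for the prostate and its tumours placed the joint sites further. Over all lists, 103 of 245 genes found on chromosomes 1 to 19 (42.0%) had a joint site, against 20.8% of all protein-coding genes; gene length differs between lists, and the lists were not tested. Among epithelial transcription factors, 12 of 20 genes had one, with 60 joint sites among 126 Foxa2 regions (47.6%). Beside Nfib these were led by Grhl2 (8 of 18), a grainyhead factor of epithelial junctions, Klf5 (7 of 16) and Ehf (5 of 7), an ETS factor. Forkhead genes had 11 of 14, led after Foxp1 by Foxa1 and Foxn3 with 7 each. Luminal and androgen response genes had 12 of 18, with 36 joint sites among 93 Foxa2 regions (38.7%). Abcc4, a transporter gene, and Cdh1, which encodes E-cadherin, had 5 each, and Krt8 and Fkbp5 had 1 each. Ackr3, Hoxb13, Msmb, Pmepa1 and Slc45a3 had no Foxa2 region, and Steap4 had 1 that was not joint.

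Basal epithelial genes had 4 of 12, with 21 joint sites among 48 Foxa2 regions (43.75%). Of these 21, Itga6, which encodes a laminin receptor subunit, held 14. Dst had 4, Nrg1 had 2 and Trp63, the basal master regulator gene, had 1. Krt5 and Krt14 had no Foxa2 region. Neuroendocrine and neuronal genes had many Foxa2 regions but few joint ones: 23 of 175, or 13.1%, at 11 of 23 genes. Scn3a had 3 of 25 and Prox1 2 of 28, whereas Scg2, which encodes a secretogranin, had 3 of 3. Chga, which encodes a granule protein, had 0 of 7. Of the 14 lists with a Foxa2 region, 9 had a joint share above the 29.3% of the whole Foxa2 list and 5 had one below it; epithelial transcription factors had the highest share and neuroendocrine genes the lowest. Overlap chose the joint sites, so this describes which loci they fell in.

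At receptor tyrosine kinases and ligands 36.8% of Foxa2 regions were joint, and at Wnt and TCF genes 34.1%. The share was 41.3% at AP-1 and Hippo genes and 40.0% at mesenchymal transition genes, against 29.3% of the whole Foxa2 list. In the same order, 40.0%, 60.0%, 38.9% and 42.9% of genes had a joint site, against 20.8% of all protein-coding genes. Single genes varied within each list, gene length differs between lists, and none was tested. Receptor tyrosine kinases and ligands had joint sites at 8 of 20 genes, with 8 of 18 Foxa2 regions at Fgfr2, 8 of 14 at Kitl, the ligand of Kit, and 4 of 10 at Kit itself. Erbb2 and Erbb3 had no Foxa2 region, whereas Erbb4 had 7, none of them joint. Wnt and TCF genes had them at 9 of 15, led by Lgr4 (7 of 18) and Tcf7l1 (7 of 20), with 5 of 10 at Ctnnb1, which encodes beta-catenin. AP-1 and Hippo genes had them at 7 of 18, led by Tead1 (11 of 29) and Jun (5 of 12). Mesenchymal transition genes had 12 joint sites at 6 of 14 genes, with 3 of 3 at Tgfbr2 and 3 of 6 at Twist2.

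Chromatin regulators had 60 joint sites among 215 Foxa2 regions (27.9%) at 8 of 21 genes. Arid1b, a subunit of BAF remodelling complexes, had 14 of 23, whereas Chd7, a remodeller gene, had 13 of 73. Tle1 and Tle3, which encode corepressors known to bind forkhead proteins, had 11 of 24 and 8 of 14. Tumour suppressor genes had 19 joint sites among 42 Foxa2 regions (45.2%) at 7 of 12 genes, with 6 of 9 at Btg2 and 3 of 4 at Cdkn1b, which encodes a cell cycle inhibitor. Proliferation genes had 7 of 40 at 2 of 14 genes, and 6 of these were at Cdk6. Other cell types that a dissected prostate can hold were covered by further lists. Immune genes (12) and seminal vesicle and urothelial genes (10) had no Foxa2 region at all. Stromal genes had 3 joint sites at 2 of 12 genes, Dcn and Des. Endothelial genes had 10 among 42 Foxa2 regions (23.8%) at 4 of 10 genes, a gene share of 40.0% like that of the receptor tyrosine kinases; Vwf had 5 of 17 and Kdr 3 of 3. Occupancy near a gene does not show that the gene is expressed, so these lists do not measure the makeup of the tissue, and the part of other cells in the result was not tested.

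Joint sites often had company. Of the 10190, 5465 (53.6%) had another Foxa2 region of any class within 1 kb, against 49.3% of all Foxa2 regions, and 3202 (31.4%) had another joint site within 1 kb. The median gap from a joint site to the next was 60.7 kb. The richest 100 kb windows lay in Rere at chr4:150400001-150500000, with 13 joint sites among 26 Foxa2 regions, in Foxp1 at chr6:99000001-99100000, with 13 of 21, and in Ppfibp2 at chr7:107600001-107700000, with 12 of 22.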

How the data were processed

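Chromatin immunoprecipitation libraries of Foxa1 and Foxa2 at 2 weeks and 6 months were used as deposited peak lists in MACS2's layout, 1 library per list. Per the submitters' processing notes, the build was mm10 and the tools included MACS2 2.1.1, Bowtie2, Trim Galore 0.5.0, bedtools 2.25.0, HOMER, DiffBind 2.12.0 and deepTools 3.2.1; what each did, with which settings and control, was not given in the sources used here. Fold enrichment is the authors' ratio at the summit; the −log10 of p and of q are the authors' values; the deposited score equals the −log10 q times 10, cut to a whole number. The smallest −log10 q corresponds to a q of 0.05. The lists give no read depth, so a missing region may be a missed one, and widths depend on the caller's settings.

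Regions on chromosomes 1 to 19 were used; on X and Y, 766 and 239 Foxa1 regions (2 weeks, then 6 months) and 213 late Foxa2 regions were left out, as were 12, 2 and 3 on other contigs. Overlaps were computed with scipy 1.17.1, pandas 2.3.3 and numpy 2.4.6 under Python 3.11.15, tested on simulated regions, and checked with bedtools 2.31.1, which also gave 10190. Gene positions, start sites and sequences came from RefSeq, GRCm38.p6; 245 of 249 listed genes were found on these chromosomes. Figures were drawn with matplotlib 3.10.9. No test between groups was made, as each has 1 library.

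Named were the 10 joint sites of highest Foxa2 −log10 q, the 5 of highest Foxa1 −log10 q at each time, those at the threshold and at the ends of the rank differences, the 12 genes with the most joint sites (with ties), up to 4 genes per list, Foxa1 and Foxa2, up to 10 promoter windows and the 3 richest 100 kb windows; genes named with few or no joint sites, the 3 widest regions and Foxa1 counts at Rad51b and Zbtb20 were picked after their values were seen. The joint sites and the gene lists were chosen with earlier results of these data known. Some genes of the lists are not reported here. The settings varied were a −log10 q of 5, reciprocal overlap, near summits, lists of equal length, joined regions, X and Y, and other distance limits.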

Additional observations from a re-analysis of the deposited data

How the results depend on the processing

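With a −log10 q of at least 5 in all 3 lists there were 4880 joint sites (32.5% of 15013), with summits within 100 bp in 55.3% at 6 months and 55.8% at 2 weeks, gene bodies at 56.9% and 2817 genes. Reciprocal overlap of 50% left 3767, with 56.9% and 59.4%, gene ends at 8.12%, gene bodies at 56.7%, 2466 genes and 66 list genes. Requiring summits within 200 bp left 5908, with 69.1% and 72.1%, which that requirement raises by construction, and gene ends at 6.97%. Joining regions less than 1 kb apart gave 49.6% for the 2-week summits and 6.87% for gene ends. A 5 kb limit gave 19.8% for gene ends. Counting any overlap with a promoter window, in place of the summit, gave a forkhead share of 36.4% (161 of 442); under the other settings it stayed between 53.9% and 58.4%. Lists cut to equal length left 8609 joint sites, and X and Y raised them to 10249. For the main values, 34 of 54 alternatives moved them by less than counting error or, for counts, by less than 1.5 times; for single gene lists 94 of 112 did. Neuroendocrine genes with a joint site went from 11 to 7 (−log10 q), 3 (reciprocal overlap) and 6 (gene end within 5 kb), tumour suppressors from 7 to 3 and 2 under the first 2 of these, luminal genes from 12 to 7 under the first, mesenchymal genes from 6 to 3 and endothelial genes from 4 to 2 under reciprocal overlap. Within 5 kb, receptor tyrosine kinases went from 8 to 5 and AP-1 and Hippo genes from 7 to 4. Proliferation and stromal genes went from 2 to 1 in the remaining 8. No paired analysis was possible because each group holds 1 library and no result comes from a test between groups. Unknown depth limits every statement on absence from a list.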

Other observations

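The share of Foxa2 regions that were joint sites varied little between chromosomes, from 27.2% (25.1 to 29.3) on chromosome 8 to 31.6% (29.5 to 33.7) on chromosome 11. Further loci with many joint sites were Slc25a21, a neighbour of Foxa1 on chromosome 12, with 13 of 47 Foxa2 regions, Maml3, which encodes a Notch coactivator, with 13 of 29, and Eps8, which encodes an actin regulator, with 13 of 21; they were chosen after their values were seen. Of the microRNA hairpins in the RefSeq table, 3 lay within joint sites. Mir7668 lay in a region assigned to Zfp27 with a Foxa2 fold of 5.84, Mir707 in a region of Tbc1d17 with 4.63, and Gm51288 in a region of Dhx40 with 7.51. In 100 kb windows, 5690 held at least 1 joint site, 1064 at least 3 and 264 at least 5.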
